A study of Homo sapiens with 6 samples.

Results

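The genes that build cholesterol and fatty acids were compared between the ESCC line KYSE70 and its derivative NRF2null-KYSE70. ESCC is esophageal squamous cell carcinoma, and KYSE70 is an established human line whose NFE2L2 gene carries a missense mutation. NFE2L2 encodes NRF2, a transcription factor of the antioxidant response, and NRF2null-KYSE70 was expanded from 1 KYSE70 cell clone in which that gene had been edited with CRISPR-Cas9. The 35 genes were taken by symbol from the 58884 genes of the table, each symbol occurred once, and all 35 passed the filter on low values. Of the 35, 5 encode the sterol regulatory element-binding proteins (SREBPs) or the proteins that escort and retain them, here called SREBP processing. Another 7 belong to the mevalonate and isoprenoid steps and 12 to squalene and sterol metabolism. The rest are 5 genes of fatty acid synthesis and 6 of fatty acid elongation and desaturation. Both lines were untreated and grown in the same medium with fetal bovine serum, and RNA-seq was done on 3 libraries of each. The libraries of NRF2null-KYSE70 come from a single clone, so the comparison is between that clone and its parental line. The study also noted a faint residual NRF2 band of lower molecular weight in the clone.

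SREBPs are made as membrane proteins of the endoplasmic reticulum, where SCAP escorts them and the INSIG proteins hold them back when sterol is plentiful. When sterol is scarce they move to the Golgi apparatus, are cut by proteases and enter the nucleus. SREBF2 encodes the form best known for driving cholesterol synthesis and SREBF1 the forms best known for fatty acid synthesis. Acetyl-CoA feeds both routes: it is joined into mevalonate and then into isoprenoids, squalene and sterols, or it is carboxylated to malonyl-CoA and built into palmitate, which is then lengthened and desaturated.

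The libraries held 52072801 to 63975313 reads assigned to genes. As a check of the labels, NFE2L2 had a normalized count of 9928 ± 102 in the parental libraries and 6093 ± 319 in the null ones (SD, n = 3 each), a log2 fold change of -0.71 with an SE of 0.049 (limma, adjusted p = 9.37e-08), so its RNA was reduced but present. All 8 epithelial markers examined passed the filter. KRT5, TP63 and DSG3 fell, with log2 fold changes of -0.75, -0.92 and -0.74, and KRT6A, KRT14, KRT17, CDH1 and EPCAM rose, with 0.69, 1.74, 0.66, 0.60 and 0.30. KRT14 was low, at 34.5 to 66.4 normalized counts in KYSE70 and 112 to 217 in NRF2null-KYSE70. The summed normalized counts of the list, of which KRT5 was the largest part, were 311972 to 319346 in KYSE70 and 237762 to 248938 in NRF2null-KYSE70. All 4 adipocyte and hepatocyte markers were at 3 reads or fewer in every library. Of the 4 leukocyte markers 3 were at that floor, and the summed count of that list was 0 to 4.22 in KYSE70 and 40.2 to 47.9 in NRF2null-KYSE70, where it was mostly PTPRC. Of the 5 fibroblast markers only COL1A1 passed the filter (summed count of the list 1172 to 1336 against 479 to 627) and of the 3 endothelial markers only VWF (133 to 149 against 275 to 450), with COL1A2, DCN, PECAM1 and CDH5 at the floor. PDGFRB, another fibroblast marker, had 0 reads in each KYSE70 library and 12, 15 and 14 in NRF2null-KYSE70. The part of these marker differences in the results below was not tested, and in bulk RNA fewer cells of a type and less RNA per cell cannot be told apart.

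Promoter windows, from 250 bases before to 50 bases after a transcription start, were found for 31 of the 35 genes in a RefSeq table of build GRCh38.p14. The 31 genes had 43 windows, and both strands were searched for 4 motifs. The letters TCACNCCAC, a form of the sterol regulatory element, occurred in 1 of the 43 windows, that of SREBF2, and in 1.13% of all 35116 windows. CCAAT occurred in 28 windows (65.1%) against 34.6% of all windows and 34.6% of the windows of tested genes. GGGCGG, the GC box, occurred in 37 windows (86.1%) against 44.95% of all windows and 65.5% of those of tested genes. TGACNNNGC, the core letters of the antioxidant response element that NRF2 binds, occurred in 3 windows (6.98%) against 13.4% and 14.6%, namely windows of INSIG2, HMGCS1 and EBP. These letter matches are a description of the windows and were not tested, and windows of 1 gene can overlap.

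The windows of 3 genes are shown 5′ to 3′: SREBF2 because it alone held the sterol element letters, PMVK because it was the gene with the largest fall, and STARD4, chosen after its values were seen, because it had the largest rise as tested. Capitals mark the motif matches on either strand. SREBF2 (chr22:41832855-41833154, plus strand) held TCACCCCAC at position -133 from the start, a CCAAT box read on the other strand as ATTGG at -106, and 3 GC boxes, of which the 2 at -10 and -5 overlap in the run of capitals. STARD4 (chr5:111512486-111512785, minus strand) held CCAAT boxes at -161 and -130 and a GC box at -52. PMVK (chr1:154936670-154936969, minus strand) held a GC box at -119 and none of the other motifs.
SREBF2: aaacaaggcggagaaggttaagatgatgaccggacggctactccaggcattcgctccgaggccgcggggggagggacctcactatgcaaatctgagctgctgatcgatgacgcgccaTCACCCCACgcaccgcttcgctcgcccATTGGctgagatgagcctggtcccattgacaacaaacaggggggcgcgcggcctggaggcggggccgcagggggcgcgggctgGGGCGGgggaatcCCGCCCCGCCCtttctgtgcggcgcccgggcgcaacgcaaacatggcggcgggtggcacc
STARD4: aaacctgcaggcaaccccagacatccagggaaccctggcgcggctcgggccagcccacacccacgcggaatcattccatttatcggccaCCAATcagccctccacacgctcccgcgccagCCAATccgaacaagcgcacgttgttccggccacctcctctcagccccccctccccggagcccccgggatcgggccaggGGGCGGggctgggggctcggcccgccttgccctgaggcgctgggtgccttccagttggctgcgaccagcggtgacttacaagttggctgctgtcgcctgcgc
PMVK: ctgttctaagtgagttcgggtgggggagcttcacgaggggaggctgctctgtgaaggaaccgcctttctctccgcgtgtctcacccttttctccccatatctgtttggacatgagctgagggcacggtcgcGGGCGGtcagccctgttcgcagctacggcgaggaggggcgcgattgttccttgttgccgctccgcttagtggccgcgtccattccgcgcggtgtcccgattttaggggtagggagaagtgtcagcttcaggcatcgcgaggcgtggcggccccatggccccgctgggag

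Most of the pathway differed between the lines, in all but 1 gene by a log2 fold change of less than 1 in size. At an adjusted p under 0.05, 28 of the 35 genes (80%) differed, against a background of 57.6% of the 15994 genes tested. The genes that rose in NRF2null-KYSE70 numbered 19 (54.3%, background 29.3%) and those that fell 9 (25.7%, background 28.3%). Only 1 of the 35 (2.86%), PMVK, also reached an absolute log2 fold change of 1, against 14.7% of all genes (7.23% higher and 7.43% lower). For 27 genes no null library fell within the range of the parental ones (77.1%, background 63.4%), 18 of them wholly higher and 9 wholly lower (background 32.1% and 31.3%). The median log2 fold change was 0.26 for the 35 genes and -0.007 for all genes tested, whereas the median size without regard to sign was 0.37 and 0.36. The median stayed positive under every other scaling of the libraries and was 0.18 with quantile and with total scaling. The background shares were not matched for level. They take in genes with a mean as low as 10, whereas the lowest of the 35, CYP51A1, had means of 314 and 332.

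**Figure D1:**
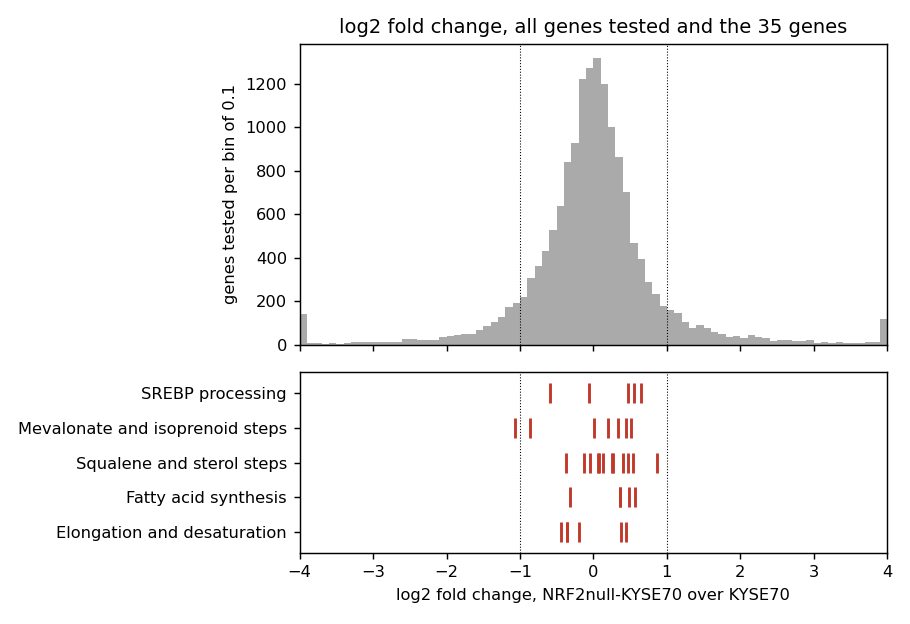
Upper panel, number of tested genes (vertical axis) per bin of 0.1 in log2 fold change, NRF2null-KYSE70 over KYSE70 (horizontal axis), with genes beyond the axis gathered in the end bins; lower panel, the same axis with 1 tick for each of the 35 genes, by role. Dotted lines mark -1 and 1, and only PMVK, at -1.07, lies beyond them.

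Among the 5 genes of SREBP processing, 3 rose, 1 fell and 1 did not pass the test, with a median log2 fold change of 0.47. The background over all genes tested was 29.3% that rose and 28.3% that fell. SREBF2 (ENSG00000198911, chromosome 22, 41833105 to 41907306) had normalized counts of 11566, 10970 and 10248 in KYSE70 and 17030, 14170 and 14388 in NRF2null-KYSE70. All 3 null libraries lay above all 3 parental ones, with the first null library the highest. The log2 fold change was 0.47 with an SE of 0.070 (limma, adjusted p = 7.84e-05). SREBF1 (ENSG00000072310, chromosome 17, 17810399 to 17837002) had 11304, 10216 and 10088 against 10686, 9782 and 9799, so the lines overlapped, and its log2 fold change of -0.06 did not pass the test (adjusted p = 0.372). With quantile or total scaling SREBF1 did pass, at -0.18 and -0.14. The ratio of SREBF2 to SREBF1 within a library went from 1.04 ± 0.0316 to 1.503 ± 0.0788 (SD, n = 3 each), with no overlap between the lines.

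INSIG1 and INSIG2 encode the proteins that retain the SREBP and SCAP complex in the endoplasmic reticulum, and both rose. INSIG1 (ENSG00000186480, chromosome 7, 155297776 to 155310235) had 3678, 3746 and 3703 normalized counts in KYSE70 and 5783, 5736 and 5862 in NRF2null-KYSE70. The libraries of each line lay close together, and the log2 fold change of 0.64 with an SE of 0.046 (adjusted p = 1.14e-07) was the largest of the processing genes as tested. With the median of the chromosome arm subtracted, INSIG1 stood at 0.48 and INSIG2 at 0.50. INSIG2 (ENSG00000125629) had 2513, 2960 and 2915 against 4081, 3982 and 4216, a log2 fold change of 0.55 (adjusted p = 1.23e-05). The ratio of INSIG1 to INSIG2 was 1.33 ± 0.113 and 1.42 ± 0.0250, and the lines overlapped.

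SCAP, the escort itself, moved the other way. SCAP (ENSG00000114650, chromosome 3, 47413681 to 47477126) had 6020, 5362 and 5123 normalized counts in KYSE70 and 4207, 3318 and 3461 in NRF2null-KYSE70, so it fell without overlap, by 0.59 on the log2 scale with an SE of 0.085 (adjusted p = 6.37e-05). Its neighbours on the short arm of chromosome 3 were lower too, with a median log2 fold change of -0.48 over the arm. After that median was subtracted (arm-centring) SCAP stood at -0.11 (adjusted p = 0.282). Against the median of the 20 nearest protein-coding genes on each side it stood at 0.04.

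**Figure D2:**
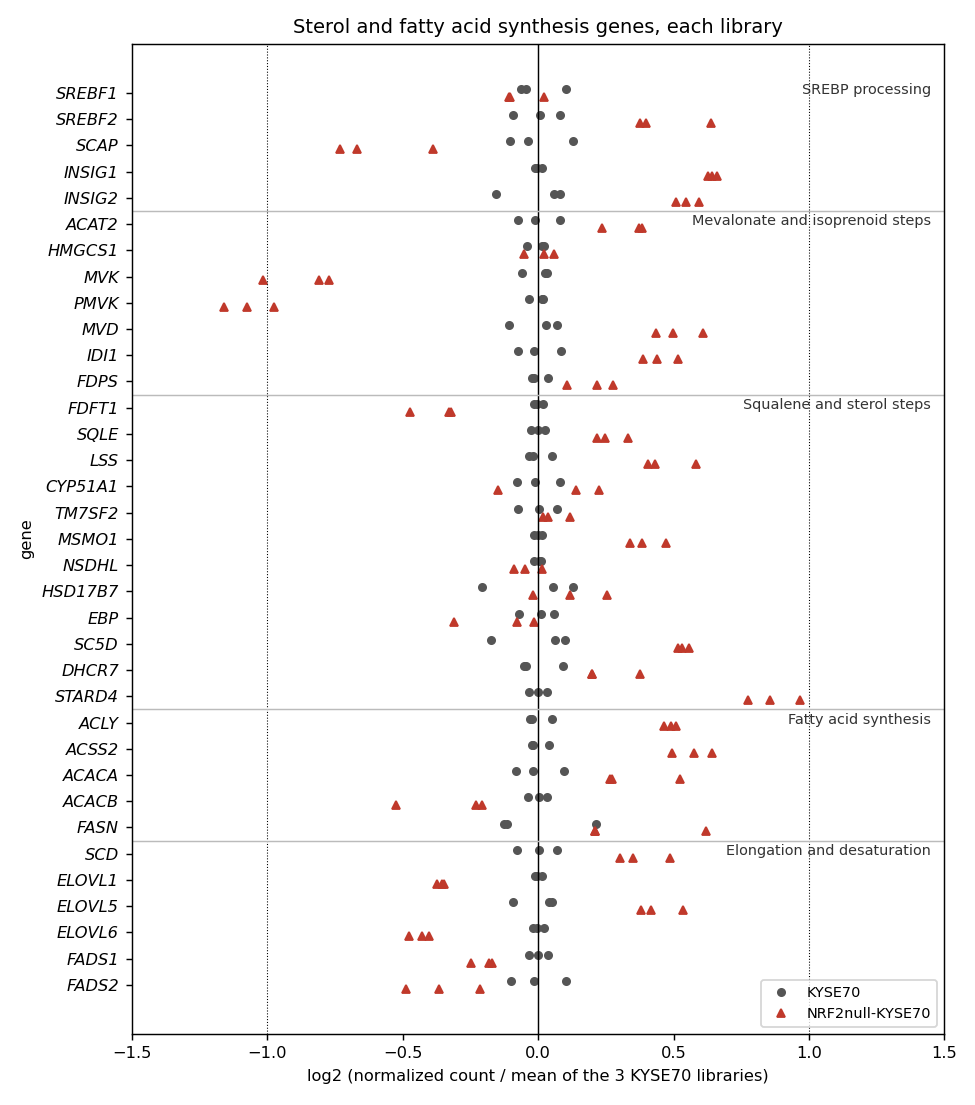
Each of the 35 genes (vertical axis, grouped by role) with its 3 KYSE70 libraries (grey circles) and 3 NRF2null-KYSE70 libraries (red triangles), as the log2 ratio of the normalized count to the KYSE70 mean (horizontal axis). Null libraries of 18 genes lie wholly above the parental ones and those of 9 wholly below, with STARD4 farthest to the right and PMVK farthest to the left; dotted lines mark -1 and 1.

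In the mevalonate and isoprenoid steps 4 genes rose, 2 fell and 1 did not pass the test, against 29.3% that rose and 28.3% that fell over all genes tested. The 2 that fell are consecutive kinases. PMVK (ENSG00000163344, chromosome 1, 154924740 to 154936719), phosphomevalonate kinase, had 2623, 2717 and 2709 normalized counts in KYSE70 and 1202, 1273 and 1365 in NRF2null-KYSE70. Every null library lay below every parental one, and the null mean was 47.7% of the parental mean. The log2 fold change was -1.07 with an SE of 0.064 (limma, adjusted p = 2.38e-08), with a range of -1.14 to -1.02 over all alternatives in which it was tested. The median of the 40 nearest protein-coding genes was -0.27, and PMVK stood at -0.80 relative to it. FDPS, which makes farnesyl diphosphate, lies close by on the same arm (chromosome 1, 155308748 to 155320666) and rose, with 10697, 10750 and 11138 against 11684, 12614 and 13144 (log2 fold change 0.20, adjusted p = 0.00496), or 0.44 relative to its neighbours. The rise of FDPS did not pass with quantile scaling (adjusted p = 0.219) or total scaling (adjusted p = 0.062).

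MVK (ENSG00000110921, chromosome 12, 109573255 to 109598125), mevalonate kinase, acts just before PMVK. It had 1997, 1872 and 1986 normalized counts in KYSE70 and 965, 1115 and 1144 in NRF2null-KYSE70, and fell without overlap by 0.86 on the log2 scale with an SE of 0.077 (adjusted p = 8.38e-07). The long arm of chromosome 12 had a median of -0.38. After arm-centring MVK was still lower, at -0.49 (adjusted p = 1.28e-04), and it stood at -0.33 relative to its 40 neighbours.

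The decarboxylase and isomerase that follow these kinases rose. MVD, mevalonate diphosphate decarboxylase, had 2572, 2276 and 2503 normalized counts against 3736, 3317 and 3461, a log2 fold change of 0.52 (SE 0.065, adjusted p = 1.99e-05). IDI1, isopentenyl-diphosphate isomerase, had 4999, 5365 and 4804 against 6612, 6856 and 7235, a log2 fold change of 0.45 (SE 0.056, adjusted p = 1.75e-05). ACAT2, the cytosolic acetoacetyl-CoA thiolase at the head of the route, rose by a log2 fold change of 0.33 (adjusted p = 3.12e-04). It stood at 0.18 after arm-centring (adjusted p = 0.0176) and at 0.14 relative to its neighbours. Genes on the other strand overlap 20.9% of the exon length of ACAT2, the largest overlap being with TCP1, at a mean of 27003 normalized counts. The next enzyme of the route, HMGCS1, had 22001, 21882 and 21050 against 21961, 20878 and 22556, so the lines overlapped around nearly equal means of 21644 ± 518 and 21798 ± 851. Its log2 fold change of 0.01 (SE 0.046, adjusted p = 0.873) changed sign with scaling, arm-centring or the library left out. With quantile scaling it was -0.15 (adjusted p = 0.0131). Genes on the other strand overlap 37.7% of the exon length of HMGCS1, the largest overlap being with AC114947.2, at a mean of 5.09. The sources used here do not state whether reads were counted by strand, and the part of TCP1 reads in the ACAT2 count was not tested.

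Of the 12 squalene and sterol genes, 6 rose, 1 fell and 5 did not pass the test, with a median log2 fold change of 0.19. Over all genes tested 57.6% passed, 29.3% higher and 28.3% lower, so the share of this group that passed was near the background. STARD4 (ENSG00000164211, chromosome 5, 111496033 to 111512590), a soluble protein that carries cholesterol between membranes, had the largest rise of the 35 genes as tested. Its normalized counts were 5618, 5892 and 5747 in KYSE70 and 9850, 11253 and 10409 in NRF2null-KYSE70. The mean was 1.83-fold higher, with a log2 fold change of 0.87 and an SE of 0.054 (limma, adjusted p = 3.4e-08), and 0.75 after arm-centring (adjusted p = 1.67e-07), where ACSS2 stood higher.

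The other rises in sterol synthesis were smaller and spread along the route. SC5D, a desaturase of the sterol ring, had 2534, 2601 and 2153 normalized counts against 3510, 3475 and 3573 (log2 fold change 0.54, adjusted p = 2.57e-05). LSS, which closes the sterol rings, had 4320, 4114 and 4070 against 6249, 5527 and 5623 (log2 fold change 0.47, adjusted p = 1.33e-05). MSMO1, which removes methyl groups at carbon C4, had 4969, 5027 and 4919 against 6295, 6491 and 6903 (log2 fold change 0.40, adjusted p = 1.81e-05), and stood at 0.26 after arm-centring and 0.22 relative to its neighbours. In these 3 genes every null library was above every parental library. SQLE, squalene epoxidase, rose by 0.27 (adjusted p = 3.69e-04) and DHCR7, a reductase late on the cholesterol route, by 0.26 (adjusted p = 0.0026).

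Of the sterol genes 3 lie on arms whose genes moved together. LSS, on the long arm of chromosome 21 with an arm median of 0.27, remained higher after arm-centring, at 0.21 (adjusted p = 0.00751), but stood at -0.07 relative to its 26 neighbours. SQLE, on the long arm of chromosome 8 with a median of 0.26, stood at 0.01 after arm-centring (adjusted p = 0.846) and at -0.16 relative to its neighbours. FDFT1, squalene synthase, the enzyme that commits farnesyl diphosphate to sterols, was the sterol gene that fell, with 15168, 15274 and 15487 normalized counts against 11019, 12196 and 12247 (log2 fold change -0.37, adjusted p = 3.4e-05). FDFT1 lies on the short arm of chromosome 8, where the median was -0.38, and it stood at 0.01 after arm-centring (adjusted p = 0.888) and at 0.39 relative to its 40 neighbours.

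The 5 sterol genes that did not pass the test were CYP51A1, TM7SF2, NSDHL, HSD17B7 and EBP, with log2 fold changes between -0.13 and 0.12 and overlapping lines. CYP51A1, lanosterol demethylase, had 311, 298 and 332 normalized counts in KYSE70 and 366, 283 and 346 in NRF2null-KYSE70, the lowest count of the 35 genes. In GENCODE v44 68.2% of its exon length is shared with another gene of the same strand, AC000120.2 (ENSG00000285772), which was listed at 0 reads in all 6 libraries, so the level of CYP51A1 is uncertain where reads falling in both genes were not counted. EBP, a sterol isomerase that shares 36.4% of its exon length with a gene of the same strand without a symbol (ENSG00000286268), had a log2 fold change of -0.13 (adjusted p = 0.143), which passed with total scaling at -0.21 (adjusted p = 0.0297) and after arm-centring at -0.23 (adjusted p = 0.0174). HSD17B7 had 1148, 1375 and 1450 against 1308, 1436 and 1579 (log2 fold change 0.12, SE 0.096, adjusted p = 0.288), a spread within each line as large as the difference.

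All 5 genes of fatty acid synthesis passed the test, 4 higher and 1 lower in NRF2null-KYSE70, against 57.6% of all genes tested. ACSS2 (ENSG00000131069, chromosome 20, 34872146 to 34927962), which makes acetyl-CoA from acetate in the cytosol and nucleus, had 1889, 1811 and 1814 normalized counts in KYSE70 and 2869, 2738 and 2589 in NRF2null-KYSE70. The lines did not overlap, and the log2 fold change was 0.57 with an SE of 0.060 (limma, adjusted p = 3.76e-06). The other genes of the long arm of chromosome 20 were lower, with a median of -0.24, and ACSS2 stood at 0.81 after arm-centring and at 0.88 relative to its neighbours. ACLY, ATP citrate lyase, which makes cytosolic acetyl-CoA from citrate, had 16224, 15426 and 15353 against 22300, 21637 and 21991, a log2 fold change of 0.49 with an SE of 0.044 (adjusted p = 9.5e-07).

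The carboxylases that make malonyl-CoA moved in opposite directions. ACACA, the cytosolic acetyl-CoA carboxylase of fatty acid synthesis, had 11216, 10342 and 9909 normalized counts against 15097, 12617 and 12669 (log2 fold change 0.36, SE 0.070, adjusted p = 7.96e-04). ACACB, the mitochondrial-surface form that restrains fatty acid import for oxidation, had 950, 996 and 976 against 831, 677 and 845 and fell by 0.32 on the log2 scale (SE 0.094, adjusted p = 0.0109). ACACB lies in the same region as MVK on the long arm of chromosome 12 (109116587 to 109268226). It stood at 0.06 after arm-centring (adjusted p = 0.602) and at 0.21 relative to its neighbours, and without the second null library its change was -0.22 (adjusted p = 0.0511). The ratio of ACACA to ACACB was 10.8 ± 0.899 in KYSE70 and 17.3 ± 1.98 in NRF2null-KYSE70, with no overlap.

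FASN, fatty acid synthase, was the called gene whose lines overlapped. Its normalized counts were 25913, 20513 and 20650 in KYSE70 and 34361, 25860 and 25880 in NRF2null-KYSE70, so the first library of each line stood above the other two. The log2 fold change was 0.36 with an SE of 0.108 (limma, adjusted p = 0.0132). The call was lost with quantile scaling (adjusted p = 0.0762), in limma without the trend (adjusted p = 0.113), in DESeq2 (adjusted p = 0.0786) and without KYSE70 library 2 or 3 (adjusted p = 0.081 and 0.0603). Without the first null library the log2 fold change was 0.22 (adjusted p = 0.00954), and without the first KYSE70 library it was 0.47 (adjusted p = 0.00243).

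The 6 genes of elongation and desaturation all passed the test, 2 higher and 4 lower, against 57.6% of all genes tested. Their median log2 fold change was -0.28. SCD, the desaturase that makes oleate and palmitoleate, had 122136, 116512 and 110215 normalized counts in KYSE70 and 162907, 143319 and 148293 in NRF2null-KYSE70. All null libraries were higher, by a log2 fold change of 0.38 with an SE of 0.061 (adjusted p = 1.61e-04). ELOVL5, an elongase of polyunsaturated fatty acids, had 16644, 16525 and 15069 against 23317, 20931 and 21473, a log2 fold change of 0.45 with an SE of 0.055 (adjusted p = 1.78e-05).

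The other 2 elongases were lower. ELOVL6, which extends palmitate to stearate, had 3649, 3684 and 3756 normalized counts against 2748, 2657 and 2793 and fell by 0.44 on the log2 scale (SE 0.051, adjusted p = 1.02e-05), and by 0.58 after arm-centring. ELOVL1, an elongase of very long chains, had 6497, 6525 and 6621 against 5120, 5056 and 5151 and fell by 0.36 (SE 0.045, adjusted p = 1.81e-05). The libraries of each line lay close together in both genes. The ratio of ELOVL5 to ELOVL6 was 4.35 ± 0.298 in KYSE70 and 8.02 ± 0.418 in NRF2null-KYSE70.

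FADS1 and FADS2, the delta-5 and delta-6 desaturases of polyunsaturated fatty acids, both fell. They lie on opposite strands of chromosome 11 (61799627 to 61829318 and 61792980 to 61867354), FADS1 within the interval of FADS2. Genes on the other strand overlap 4.79% of the exon length of FADS1 and 4.64% of that of FADS2. FADS1 had 20771, 21306 and 20306 normalized counts against 18329, 17521 and 18482 (log2 fold change -0.20, adjusted p = 0.00191), and its value was -0.34 with quantile scaling and -0.10 relative to its neighbours. FADS2 had 16197, 14923 and 14074 against 12988, 10746 and 11695 (log2 fold change -0.35, adjusted p = 7.81e-04). The lines did not overlap in either gene, whereas the ratio of FADS1 to FADS2, 1.38 ± 0.0885 and 1.54 ± 0.115, did overlap.

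**Figure D3:**
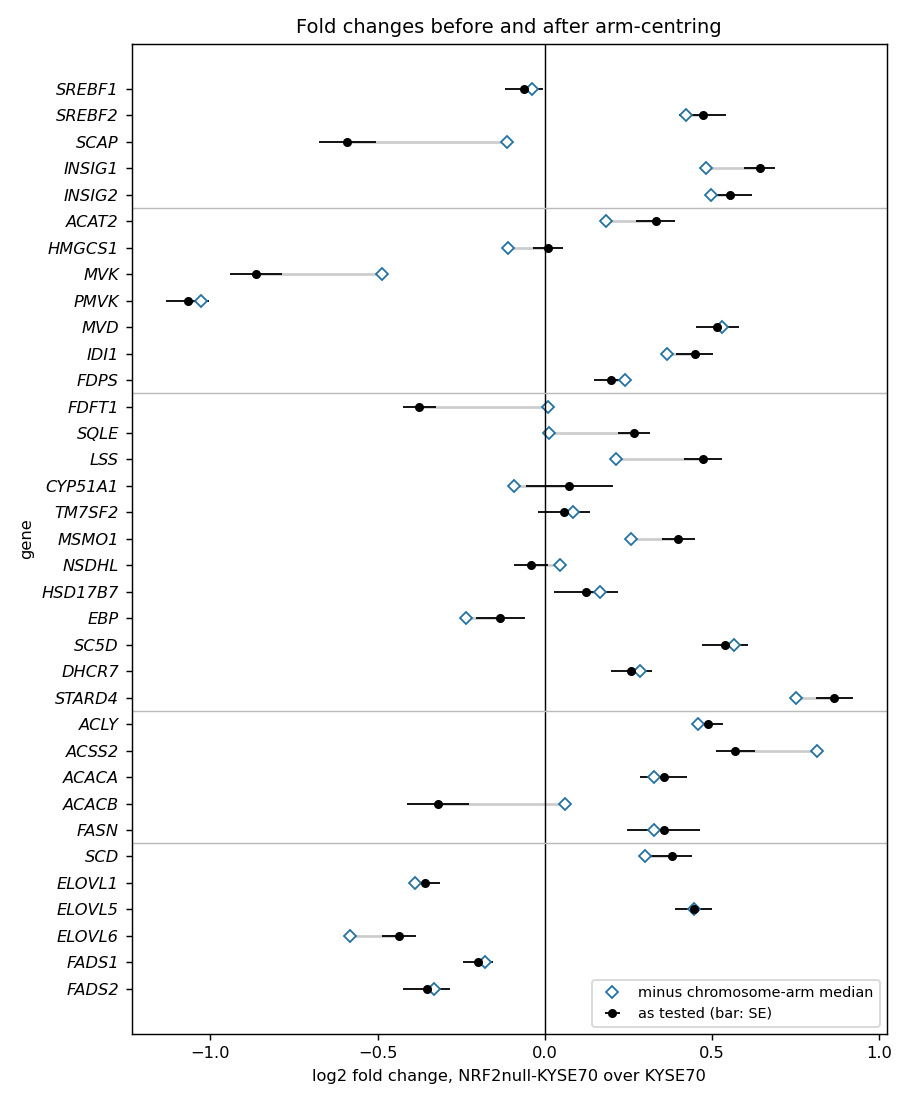
log2 fold change of each of the 35 genes (horizontal axis, NRF2null-KYSE70 over KYSE70) as tested (black circles, bars are the SE) and after the median of the chromosome arm was subtracted (open blue diamonds), by gene (vertical axis). SCAP, FDFT1, SQLE and ACACB come close to 0, at -0.11, 0.01, 0.01 and 0.06, while ACSS2 moves outward to 0.81 and PMVK stays at -1.03.

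Of the 35 genes 7 lie on an arm whose median log2 fold change was at least 0.2 in size, namely SCAP, MVK, FDFT1, SQLE, LSS, ACSS2 and ACACB. All 7 passed the test, and 3 of them, MVK, LSS and ACSS2, did so after arm-centring. Of the other 28 genes 21 passed before and 22 after. Before centring 57.6% of all genes tested passed, 29.3% higher and 28.3% lower. With arm-centring 18 of the 35 genes were higher and 7 lower. Shares of all genes under that centring are not given here, so these counts have no matched background. The median log2 fold change after arm-centring was 0.18 for the 35 genes and -0.024 for all genes tested.

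Levels were compared between genes per kilobase of exon (GENCODE v44), as normalized counts per kb. SCD was the most abundant in both lines, at 22171 in KYSE70 and 28886 in NRF2null-KYSE70, and ELOVL5 the next, at 4217 and 5745. HMGCS1 at 3266, FDFT1 at 3014 and ACLY at 3008 followed in KYSE70. PMVK moved from rank 7 at 2677 to rank 19 at 1277, whereas MVK was low by this measure in both lines, at 216 and 119. The exon length joined the exons of all annotated transcripts of a gene, 9018 bases for MVK and 1002 for PMVK. Their mean normalized counts in KYSE70 were closer, at 1952 and 2683, so ranks between genes depend on that length. The lowest levels were those of CYP51A1, at 75.2 and 79.6, and ACACB, at 67.1 and 54.0.

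**Figure D4:**
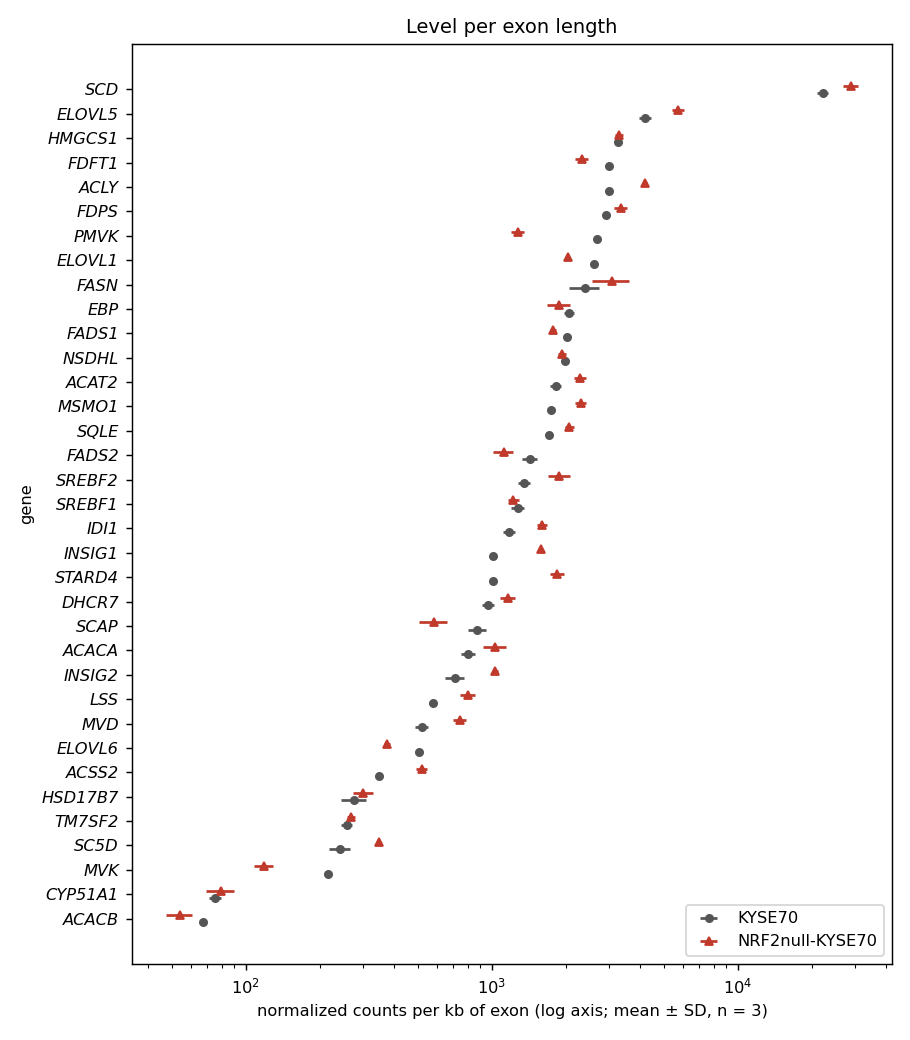
Normalized counts per kb of exon (horizontal log axis) of the 35 genes (vertical axis, ordered by the level in KYSE70) in KYSE70 (grey circles) and NRF2null-KYSE70 (red triangles), as mean ± SD of 3 libraries. SCD stands apart at the top with 22171 and 28886, and ACACB and CYP51A1 lie at the bottom below 100.

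Lists of neighbouring pathways, 105 genes in all, of which 101 were tested, gave 44 genes (43.6%) that rose and 35 (34.7%) that fell at an adjusted p under 0.05, against 29.3% and 28.3% of all genes tested. Past both thresholds were 12 (11.9%), against 14.7% of all genes. The 12 include ELOVL2 and ACSL5, which passed the filter on low values only through the line where they were higher. Of 9 genes of SREBP cleavage and sterol-dependent turnover, 5 rose and 2 fell. The proteases that release SREBPs were both higher, MBTPS1 by a log2 fold change of 0.61 (adjusted p = 4.12e-06) and MBTPS2 by 0.44 (adjusted p = 8.24e-06). RNF145, a ubiquitin ligase of the endoplasmic reticulum, fell by 0.61 (adjusted p = 1.24e-06). Of 13 genes of LXR factors, sterol export and storage, 4 rose and 4 fell, and of 14 isoprenoid branch enzymes 6 rose and 4 fell. The greatest size of a log2 fold change in these 3 lists was 0.70.

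All 7 genes listed for the supply of citrate, acetyl-CoA and NADPH had log2 fold changes below 0. Of these 6 fell and 1 did not pass the test. The list leaves out ACLY and ACSS2, which also make acetyl-CoA and are counted above under fatty acid synthesis. Both rose, with log2 fold changes of 0.49 and 0.57. Of all genes tested 28.3% fell. The median log2 fold change of the 7 was -0.59 against -0.007 for all genes. ACSS1, the mitochondrial counterpart of ACSS2, had 1617, 1456 and 1585 normalized counts in KYSE70 and 23.3, 29.4 and 17.1 in NRF2null-KYSE70 (log2 fold change -6.03, SE 0.186, adjusted p = 5.71e-11). It lies on the short arm of chromosome 20, where the median was -0.77, and stood at -5.27 after arm-centring. The ratio of ACSS2 to ACSS1 was 1.19 ± 0.0518 in KYSE70 and 122 ± 29.1 in NRF2null-KYSE70.

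NADPH is the reducing agent of both fatty acid and sterol synthesis. PGD fell by 0.88 on the log2 scale (adjusted p = 5.91e-09), IDH1 by 0.59 (adjusted p = 1.18e-06) and ME1 by 0.15 (adjusted p = 0.0215). Every null library lay below every parental library for these 3 genes.

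**Figure D5:**
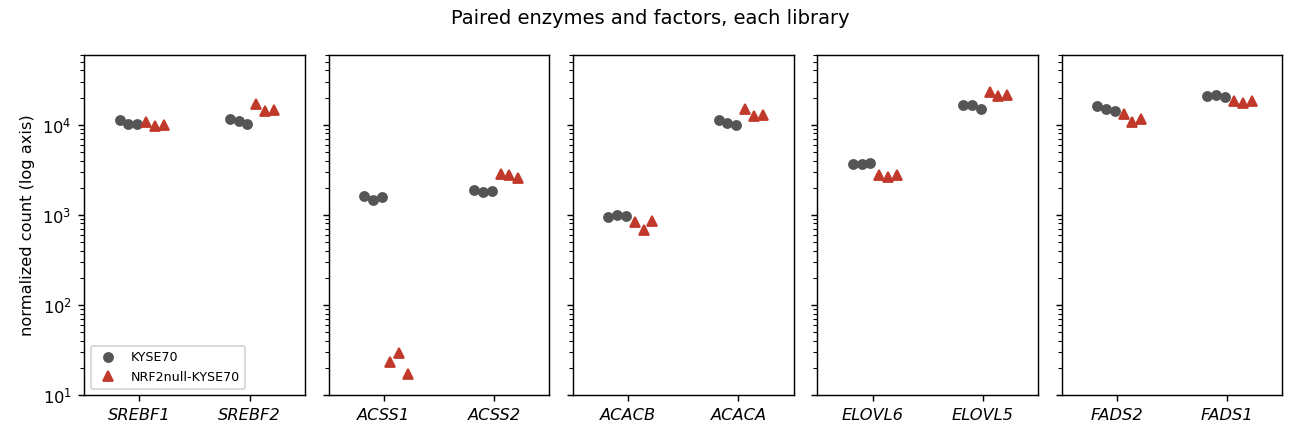
Normalized counts (vertical log axis) of 5 pairs of related genes in the 3 KYSE70 libraries (grey circles) and the 3 NRF2null-KYSE70 libraries (red triangles). ACSS1 falls from between 1456 and 1617 to between 17.1 and 29.4 while ACSS2 rises; ACACB and ACACA, and ELOVL6 and ELOVL5, move in opposite directions; FADS2 and FADS1 both fall.

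Among other genes of elongation, desaturation and fatty acid activation, 15 of 16 were tested, 9 rose and 3 fell, against 29.3% and 28.3% of all genes tested. ACSL4, an acyl-CoA synthetase that prefers polyunsaturated fatty acids, had 10168, 10111 and 9735 normalized counts against 19759, 19941 and 20714 (log2 fold change 1.01, SE 0.044, adjusted p = 1.3e-09), and it stood below 1 with quantile (0.88), TMM (0.997) and total scaling (0.93). HSD17B12, the ketoacyl reductase of fatty acid elongation, rose by a log2 fold change of 0.70 (adjusted p = 2.28e-08). ELOVL2 had 0, 1 and 0 reads in KYSE70 and 13, 36 and 44 in NRF2null-KYSE70, so it was at the floor of detection in the parent. ACSL5 was low in both lines, at 15.4 to 23.2 normalized counts against 2.94 to 13.7 (log2 fold change -1.73, adjusted p = 0.0304). It lost its call without any filter (adjusted p = 0.0613) and when any of 5 libraries was left out (adjusted p = 0.0535 to 0.0904). ELOVL2, with means of 0.30 and 32.9, and ACSL5, with 19.7 and 6.56, passed the filter only through the line where they were higher. Their calls are in the counts above but are not support for a change of the list.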

How the data were processed

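RNA was sequenced from untreated KYSE70 and NRF2null-KYSE70 cells, 3 libraries each. Per the study's methods and the submitters' processing notes, reads were trimmed with cutadapt 1.12, checked with FastQC 0.11.5, aligned to hg38 with STAR 2.6.90c and counted per gene with featureCounts 1.5.1. The authors normalized the counts with DESeq2, and the deposited table holds these normalized counts, a signal in which each library was divided by its own size factor, for 58884 genes under Ensembl identifiers. The methods name a RefSeq annotation. Counting by strand and of reads with several alignments was not stated in the sources used here. The columns carry the name of the line but no replicate number, so libraries are numbered by their order in the table. Separate cultures were not stated, so p-values measure the spread between these libraries, which may be technical.

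The deposited normalized counts gave back whole reads: 100% of values in each library were within 0.05 reads of a whole number, and totals ranged from 52072801 to 63975313 reads (deepest over shallowest 1.23). A gene at 3 reads or fewer in a library was taken as at the floor of detection, which covers counting error only.

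Differences were tested with limma 3.58.1 in R 4.3.3 (lmFit, then eBayes with its trend option, two-sided) on log2(normalized count + 1), which understates changes of genes with few reads. The 15994 genes with a mean of at least 10 were tested, with Benjamini-Hochberg adjustment over all of them. The thresholds were an adjusted p of 0.05 and, where stated, an absolute log2 fold change of 1. Fold changes are NRF2null-KYSE70 over KYSE70. Positions, arms and exon lengths were taken from GENCODE v44 (hg38), which held 58472 of the identifiers, with centromere positions rounded and written from general knowledge. Arm-centring subtracted the median log2 fold change of the protein-coding genes (mean of at least 50) of the same arm, and window-centring that of the 20 nearest such genes on each side. Promoter windows came from a RefSeq table (GRCh38.p14) and were matched by symbol.

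Alternatives changed the pseudocount (0.1 or 5), the filter (none, or a mean of 50), the scaling (quantile, TMM or total), the limma options (no trend, or robust eBayes) and the tool (DESeq2 1.42.0 or edgeR 4.0.16, run on whole reads). Further alternatives left out single libraries, applied either centring, or used the adjusted p alone. The 35 genes and the lists of other pathways were chosen with earlier results of these data known. The rule for genes given in full took those past both thresholds and the largest change in each role, and from each other list at most 3 genes past both thresholds, except 1 gene that is not reported here. Other genes of those lists were named after their values were seen.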

Additional observations from a re-analysis of the deposited data

How the results depend on the processing

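No paired analysis was possible because the columns of the table carry no replicate numbers. Of the 28 genes called at an adjusted p under 0.05, 22 kept the call in all 18 refitted alternatives, and PMVK passed both thresholds in each of them. Of 630 fits of single genes, 603 kept direction and side of the threshold, 10 lost the call and 4 gained one without a change of sign, and 13 changed sign, of which 2 also lost the call and 1 gained one. The genes past both thresholds numbered 1511 in place of 2344 with a filter at a mean of 50, where fewer genes were tested. With the adjusted p alone the counts were 9206 of all genes, 28 of the 35 and 79 of the other lists. The median log2 fold change of the 35 genes was 0.26 and moved to 0.18 (quantile), 0.18 (total scaling), 0.18 (arm-centring) and 0.22 (window-centring), and to between 0.22 and 0.29 with a library left out. In place of 19 higher and 9 lower genes there were 17 and 11 with quantile scaling, 18 and 11 with total scaling, 18 and 7 after arm-centring, and 19 and 8 without the second null library. Genes of the other lists past both thresholds numbered 11 in place of 12 with each of the quantile, TMM and total scalings. Total, quantile and TMM scaling shifted the median of all genes by -0.075, -0.0015 and -0.012.

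Changes of sign were these. HMGCS1 was -0.15 with quantile, -0.0027 with TMM and -0.066 with total scaling, -0.11 after arm-centring, and -0.010 and -0.015 without library 3 of KYSE70 and of NRF2null-KYSE70, in a range of -0.015 to 0.041 with a library left out. CYP51A1 was -0.0013 with total scaling, -0.0011 without the first null library and -0.093 after arm-centring. TM7SF2 was -0.018 with total scaling and NSDHL 0.046 after arm-centring. FDFT1 was 0.0094 after arm-centring and 0.39 after window-centring, and ACACB 0.060 and 0.21. With window-centring SCAP was 0.037, SQLE -0.16, LSS -0.073, HMGCS1 -0.14 and CYP51A1 -0.16. Except where the construction shows it, the cause was not tested. The lone clone, 3 libraries per line and unstated strand counting limit these values.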

Other observations

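Of 21 genes of glycerolipid and phospholipid synthesis 20 were tested, and 10 rose and 8 fell in NRF2null-KYSE70, with 3 past both thresholds. Of all genes tested 29.3% rose, 28.3% fell and 14.7% passed both thresholds. The phosphatidate phosphatases of the lipin family differed in direction. LPIN3 had 1507, 1514 and 1543 normalized counts in KYSE70 and 403, 412 and 420 in NRF2null-KYSE70 (log2 fold change -1.88, SE 0.076, limma adjusted p = 6.25e-10), whereas LPIN1 rose by a log2 fold change of 0.72 (adjusted p = 2.95e-07) and LPIN2 by 0.51 (adjusted p = 7.83e-06). CDS2, which makes CDP-diacylglycerol, had 3602, 3602 and 3288 against 1490, 1326 and 1442 (log2 fold change -1.30, adjusted p = 4.66e-09). CDS2 lies on the short arm of chromosome 20, where the median was -0.77, and stood at -0.54 after arm-centring. AGPAT4, an acyltransferase, had 143, 165 and 112 against 373, 331 and 371 (log2 fold change 1.37, adjusted p = 1.15e-05). PLIN2, which encodes a coat protein of lipid droplets, was listed at 0, 1 and 0 reads in KYSE70 and 1, 1 and 2 in NRF2null-KYSE70 and was not tested.

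Of 14 genes of fatty acid oxidation 13 were tested, and 3 rose and 6 fell, against 29.3% and 28.3% of all genes tested. ACAA2, a mitochondrial thiolase, had 907, 1035 and 1062 normalized counts in KYSE70 and 131, 203 and 182 in NRF2null-KYSE70 (log2 fold change -2.56, SE 0.151, adjusted p = 2.0e-08). HADHA and HADHB, the subunits of the trifunctional protein, fell by 0.36 and 0.41 on the log2 scale (adjusted p = 1.0e-05 and 9.94e-06). SLC25A20, the carnitine carrier, had 350, 340 and 384 against 188, 163 and 140 (log2 fold change -1.13, adjusted p = 2.25e-05) and stood at -0.65 after subtraction of the -0.48 of its arm. Of 11 lipogenic regulators and AMPK subunits 10 were tested, and 7 rose and 2 fell, against the same 29.3% and 28.3%. PRKAG2, a regulatory subunit of AMPK, had 2231, 2205 and 2064 against 4994, 5230 and 4919 (log2 fold change 1.22, adjusted p = 1.59e-09). The catalytic subunit genes PRKAA1 and PRKAA2 rose by 0.50 and 0.71 (adjusted p = 7.23e-07 and 2.11e-06). The 2 genes of this list that fell, PRKAB2 and PRKAG1, also encode AMPK subunits. Their log2 fold changes were -0.22 and -0.19 (limma, adjusted p = 0.00673 and 0.0158), and PRKAG1 stood at 0.19 after arm-centring. PPARG, a lipogenic nuclear receptor, was low, at 16.9, 60.8 and 54.8 against 129, 173 and 137 (log2 fold change 1.88, SE 0.394, adjusted p = 0.00121).

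Within a line the libraries were not alike for the 35 genes. The first KYSE70 library was the highest of its line for 16 of the 35 genes, against 36.3% of all genes tested. The third NRF2null-KYSE70 library was the highest of its line for 18 and the second for 3, against 29.2% and 30.0% of all genes.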
